A study of Mus musculus with 4 samples.

Results

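Replication licensing loads the MCM2-7 helicase onto DNA before S phase. The 10 genes described here encode the 6 helicase subunits (Mcm2, Mcm3, Mcm4, Mcm5, Mcm6 and Mcm7), the loaders Cdc6 and Cdt1, the Cdt1 inhibitor geminin (Gmnn) and the activation factor Mcm10. They were listed by name, with no threshold on their values, and all 10 were found among the 50600 genes measured, of which 21764 are protein-coding. RNA was sequenced from mouse primary cells of strain C57BL/6NJ that the labels call T-helper 17 (Th17), CD4 T cells that make interleukin 17. The 4 libraries form 1 group of biological replicates 1 to 4, with no control group, and the labels give no genotype beyond the strain, no treatment, age or sex. They link a protocol for CD4 T cell differentiation, and every alignment file is named with hour 0. The libraries have separate biosample records but share 1 donor record, and nothing says that they came from separate animals, so p-values below measure only the spread between these samples, which may be technical.

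In G1, the origin recognition complex (ORC) and Cdc6 hold the origin while Cdt1 brings in MCM2-7 rings, which are loaded as inactive double hexamers. Kinases then recruit Cdc45 and the GINS complex, Mcm10 helps the helicase start, and geminin together with Cdt1 destruction blocks a further round of loading until the next cell cycle. Naive T cells rest outside the cycle for long periods and divide quickly after antigen stimulation, and many licensing genes are textbook targets of E2F transcription factors.

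The label was checked against marker genes. Levels are given as TPM, a transcript abundance that divides each gene's count by its exon length and scales every library to the same total. All 9 T cell identity genes and all 11 naive or resting T cell genes were at or above 1 TPM in every library, with list medians of 969 and 482 TPM. Th17 markers were low, with 3 of 8 genes at 1 TPM in every library and a list median of 0.456 TPM. Il17f, a Th17 cytokine, was the highest of them at 9.83 ± 3.10 TPM, and Il22 was not counted in replicate 3. Among 12 proliferation markers, 4 reached 1 TPM in every library, the list median was 1.12 TPM, and the highest gene was Top2a, the mitotic topoisomerase, at 3.65 ± 0.239 TPM (SD, n = 4). Mki67, the usual marker of dividing cells, was at 0.990, 1.30, 0.727 and 1.20 TPM in replicates 1 to 4. The libraries thus had naive and resting T cell transcripts at high levels and proliferation and Th17 transcripts at low ones, against their Th17 label. Marker lists of other cell types had medians of 0.0733 TPM for B cells, 0.0995 TPM for myeloid cells and 0.14 TPM for CD8 and NK cells, and 5 of 8 thymocyte or erythroblast genes, Rag1, Rag2 and Ptcra among them, had no count in any library. In these lists 3 genes reached 1 TPM in every library: Itgam, at 1.61 ± 0.224 TPM, Cd8b1, at 42.9 ± 2.88 TPM beside 0.150 ± 0.0772 TPM for Cd8a, and Dntt, at 25.7 ± 2.07 TPM. In bulk RNA, a low level in all cells and a higher level in few cells cannot be told apart.

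Licensing genes share E2F sites as a known feature of their promoters, so the upstream sequence was searched for them. Windows of 250 bases before the start, from RefSeq on GRCm38.p6, were at hand for 8 of the 10 members, in 9 windows because Mcm7 has 2 starts. Exact matches to TTTCCCGC, TTTCGCGC, TTTGCCGC or TTTGGCGC on either strand were found in 4 of these 8 genes, Mcm5, Mcm6, Mcm7 and Cdc6. The same search matched 475 of 17491 protein-coding genes with a window, or 2.72%, and 2.35% of all 21262 windows. In the other replication lists it matched 2 of 5 firing factors, 2 of 6 ORC genes and 1 of 3 other MCM genes. It also matched 1 of 4 origin firing kinases, 2 of 10 polymerase genes, 1 of 6 clamp genes and 1 of 11 turnover genes. No RPA, Okazaki fragment, fork protection or nucleotide supply gene with a window matched. The stretches from Mcm6, Mcm5 and Cdc6 are shown because they carry such matches and come from members at high and at low level in the same libraries. The capitals mark the E2F letters, and matches on opposite strands overlap in Mcm5 and in the upstream pair of Mcm6.
Mcm6, chr1:128359730-128359830, minus strand: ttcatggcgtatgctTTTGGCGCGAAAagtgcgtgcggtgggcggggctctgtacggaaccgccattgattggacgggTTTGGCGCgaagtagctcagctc
Mcm5, chr8:75109341-75109382, plus strand: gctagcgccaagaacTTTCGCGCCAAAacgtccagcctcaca
Cdc6, chr11:98907998-98908035, plus strand: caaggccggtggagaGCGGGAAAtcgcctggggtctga
Mcm6 held 3 matches, centred 43, 102 and 106 bases before its start, Mcm5 held 2, at 145 and 149 bases, and Cdc6 held 1, at 134 bases. The match of Mcm7 lay in a window that falls wholly inside the gene's own annotated exons. The Cdc6 window lies inside the annotated span of that gene, with 81 of its 250 bases in Cdc6 exons, and the printed stretch is outside them. No match in the windows of Mcm2, Mcm3, Mcm10 and Cdt1 says only that these letters are not in those 250 bases, and a match is no measure of binding.

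All 6 helicase subunit genes were well above the median of all annotated protein-coding genes. Their mean was 55.3, 56.9, 54.1 and 56.0 TPM in replicates 1 to 4, or 55.6 ± 1.22 TPM (SD, n = 4), and their lowest, Mcm5, stood at percentile 78.6 of protein-coding genes. Counting all 10 members, 8 were at 1 TPM or more in every library and 2, Cdc6 and Mcm10, were below 1 TPM in every library, whereas 45.6% of protein-coding genes reached 1 TPM in every library. The same 8 genes also reached 5 TPM in every library. The median protein-coding gene was at 0.355 TPM. That median is over all annotated genes, and 11357 of the 21764 were below 1 TPM in every library. No rank among expressed genes alone was taken.

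Mcm4 (ENSMUSG00000022673, mm10 chr16:15623897-15637400, minus strand), one of the subunits that the DDK kinase Cdc7-Dbf4 phosphorylates, was the highest member. Its levels were 90.5, 89.5, 90.4 and 87.7 TPM in replicates 1 to 4, from 2706, 3191, 4612 and 4068 counted fragments. The 4 libraries lay within a CV of 1.46%, close to the 1.69% that counting error alone would give. Mcm6 (ENSMUSG00000026355, chr1:128331590-128359664, minus strand), which sits with Mcm4 and Mcm7 in the catalytic core, followed at 58.9, 64.3, 59.4 and 64.6 TPM. Replicates 2 and 4 were its high libraries, and none of its values overlapped those of Mcm4.

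Mcm3 (ENSMUSG00000041859, chr1:20802968-20820312, minus strand), the subunit through which the ring first meets ORC and Cdc6, was at 51.3, 54.1, 48.0 and 51.8 TPM. Mcm7 (ENSMUSG00000029730, chr5:138164583-138172422, minus strand) was at 49.7, 54.1, 48.6 and 51.4 TPM. These neighbours in the order did not differ beyond their spread, since Mcm3 was the higher in 3 of 4 libraries and the mean log2 ratio was 0.01 ± 0.03. Exons of Mcm7 share 64 bases with Cops6 and 321 bases with Ap4m1 on the opposite strand, which the stranded counting kept separate. They also contain Mir25 (84 bases) and Mir93 (88 bases) on the same strand, where the counter by default assigns a fragment that overlaps both genes to neither, and how many Mcm7 fragments this took was not measured.

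Mcm2 (ENSMUSG00000002870, chr6:88883474-88898780, minus strand), which also carries a histone-binding tail, was at 42.6, 41.9, 42.6 and 41.9 TPM. Mcm5 (ENSMUSG00000005410, chr8:75109569-75128439, plus strand), which forms with Mcm2 the gate through which DNA enters the ring, was at 38.7, 37.8, 35.5 and 38.7 TPM. Mcm2 had the smallest CV of the members, 1.01%. Counting error alone would give 1.77%, so the CV does not show a steadier gene. Mcm5 was the lowest subunit in every library.

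The 6 proteins enter the ring in equal number, and their transcripts lay within a narrow range of each other. The highest subunit was 2.34, 2.37, 2.55 and 2.27 times the lowest in replicates 1 to 4, a mean of 2.38 ± 0.119-fold (SD, n = 4), with Mcm4 the highest and Mcm5 the lowest. Other replication complexes were described the same way. The fold between highest and lowest was 4.70 ± 0.325 for the 3 genes of RPA, the single-strand binding protein, and 6.14 ± 0.387 for the 5 genes of RFC, which loads the PCNA clamp. It was 74.3 ± 37.0 for the 4 GINS genes, with Gins4 the highest and Gins2 the lowest, and 168 ± 44.1 for the 6 ORC genes, where Orc1 was the lowest. Without Orc1 the ORC fold was 1.96 ± 0.0994. Leaving out the lowest gene can only lower such a fold, and no gene was left out of the other complexes. With the longest transcript as the length, the mean folds were 2.02 for MCM2-7, 2.29 for ORC without Orc1, 284 for all of ORC, 3.12 for RPA, 5.87 for RFC and 70.8 for GINS, so MCM2-7 and ORC without Orc1 changed places. These folds were not tested against each other, since the complexes differ in size and level.

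**Figure D1:**
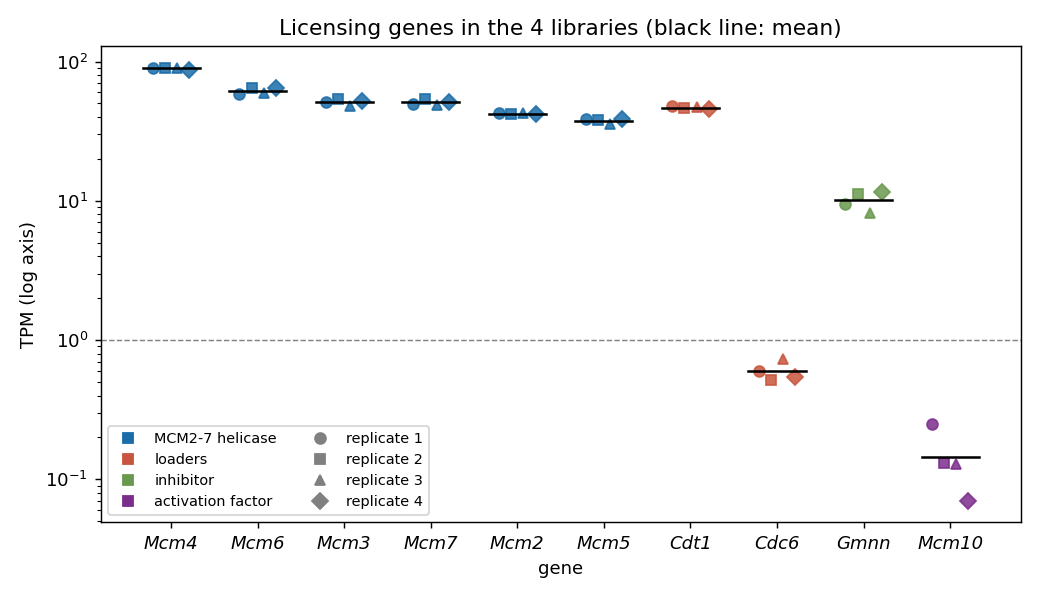
TPM (log axis) of the 10 licensing genes in each of the 4 libraries, with marker shape for the replicate, colour for the role and a black line for the mean. The MCM2-7 genes and Cdt1 lie between 35.5 and 90.5 TPM, Gmnn lies near 10.1 TPM, and Cdc6 and Mcm10 lie below the dashed line at 1 TPM in every library.

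The 2 loaders were far apart. Cdt1 (ENSMUSG00000006585, chr8:122568015-122573554, plus strand), which carries MCM2-7 to the origin, was at 47.8, 46.1, 46.9 and 45.9 TPM, within the range of the helicase genes. Its CV was 1.87%, below the 2.50% of counting error. Cdc6 (ENSMUSG00000017499, chr11:98907801-98923940, plus strand), the ATPase that joins ORC at the origin, was at 0.597, 0.520, 0.726 and 0.547 TPM, from 26, 27, 54 and 37 fragments. The log2 ratio of Cdc6 over Cdt1 was -6.08 ± 0.17 and its sign was the same in 4 of 4 libraries. The Cdc6 total of 144 fragments has an exact Poisson 95% interval of 121 to 170, which covers counting error only, so its presence was measured but its level between libraries was not resolved: its CV of 15.3% was below the 17.4% that counting error gives.

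Gmnn (ENSMUSG00000006715, chr13:24751845-24761923, minus strand), which binds Cdt1 and blocks reloading in S and G2 phase, was at 9.51, 11.2, 8.16 and 11.5 TPM, from 116, 163, 170 and 218 fragments. Its mean of 10.1 ± 1.56 TPM lay between the helicase genes and Cdc6, and no library overlapped either. Cdt1 exceeded Gmnn by 4.62-fold, a log2 ratio of 2.21 ± 0.25, in 4 of 4 libraries. The Gmnn CV of 15.5% was larger than the 7.94% of counting error, with replicates 2 and 4 high and replicate 3 low.

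Mcm10 (ENSMUSG00000026669, chr2:4989714-5012791, minus strand), which acts after loading, when the helicase is activated, was the lowest member. It was at 0.250, 0.131, 0.128 and 0.0704 TPM, from 16, 10, 14 and 7 fragments. Its total of 47 fragments has an exact Poisson 95% interval of 34.5 to 62.5. The log2 ratio of Mcm10 over Mcm2 was -7.48 ± 0.42. Replicate 1 was high and replicate 4 low, with a CV of 52.0% against 30.7% from counting error.

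The order of the means was Mcm4, Mcm6, Mcm3, Mcm7, Cdt1, Mcm2, Mcm5, Gmnn, Cdc6 and Mcm10. In all, 15 pairs were compared by the log2 ratio of TPM + 0.1, the 9 neighbours in this order and 6 chosen by role. The 6 role pairs were Cdt1 over Gmnn, Cdc6 over Cdt1, Mcm10 over Mcm2, Cdc6 over Mcm2, Mcm4 over Mcm2 and Mcm3 over Mcm5, and each ratio had 1 sign in 4 of 4 libraries. A two-sided exact permutation test that flips the signs gave each of them p = 0.13, the smallest that 4 libraries allow, and 0.134 after Benjamini-Hochberg adjustment over the 15 pairs, so no pair could pass 0.05. The neighbours' direction was fixed by the sorting on the same means, so their steps are a description with no test. Steps between the high neighbours other than Mcm3 and Mcm7 were 0.54 ± 0.09 for Mcm4 over Mcm6, 0.27 ± 0.06 for Mcm6 over Mcm3, 0.13 ± 0.09 for Mcm7 over Cdt1, 0.14 ± 0.01 for Cdt1 over Mcm2 and 0.17 ± 0.07 for Mcm2 over Mcm5. The steps below were larger, at 1.90 ± 0.19 for Mcm5 over Gmnn, 3.86 ± 0.41 for Gmnn over Cdc6 and 1.55 ± 0.43 for Cdc6 over Mcm10. The steps at low level depended on the pseudocount: with 1 in place of 0.1, Gmnn over Cdc6 was 2.79, Cdc6 over Mcm10 was 0.48, Cdc6 over Cdt1 was -4.90 and Mcm10 over Mcm2 was -5.24, each with the same direction.

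The order among the 7 abundant members depended on the length that a count was divided by. The deposited length is the sum of all exon bases annotated for a gene, which for Mcm2 is 6956 bases, 1.99 times its longest transcript of 3494 bases, and for Mcm7 is 4426 against 2962 bases. With the longest transcript, Mcm2 moved from rank 6 to rank 2, at 67.0 ± 0.727 TPM beside 71.3 ± 1.09 TPM for Mcm4. On that scale Mcm4 over Mcm2 went from 1.08 to 0.09 log2, and Cdt1 over Mcm2 turned from 0.14 to -0.63. Mcm7 then stood above Mcm3, at 60.6 ± 2.82 against 44.7 ± 2.18 TPM. Mcm4 remained the highest and Mcm5 the lowest of the abundant genes, and the highest subunit was 2.02-fold above the lowest. Gmnn, Cdc6 and Mcm10 kept ranks 8, 9 and 10 under both lengths.

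**Figure D2:**
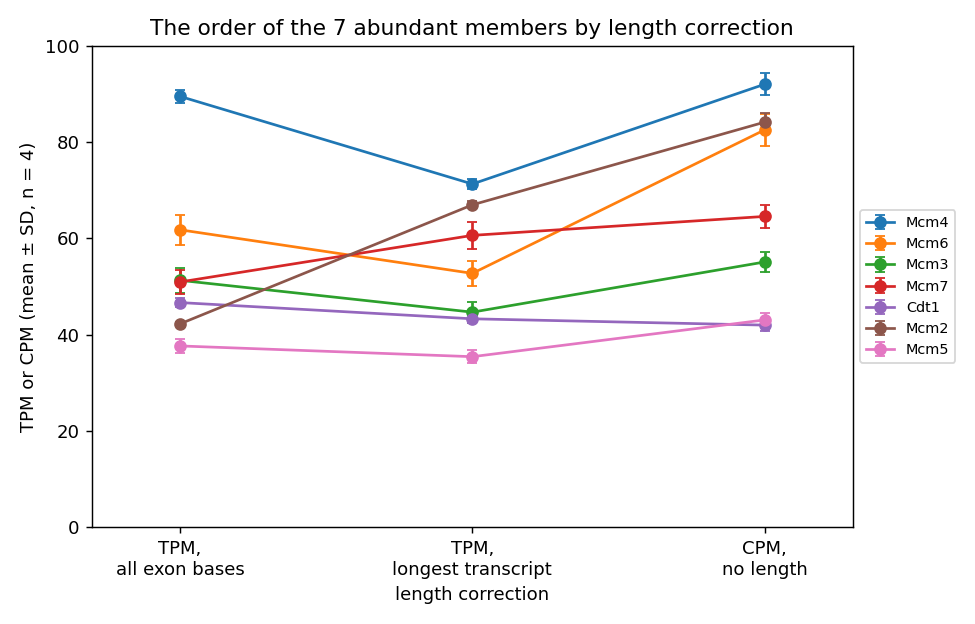
Mean TPM or CPM ± SD (n = 4 libraries) of the 7 abundant members, with counts divided by all annotated exon bases, by the longest transcript, or by no length (CPM, counts scaled to the library total). Mcm2 moves from 42.2 TPM to 67.0 TPM between the first 2 corrections, whereas Mcm4 stays the highest and Mcm5 lies at 35.4 to 43.1 on the 3 scales.

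Between the 4 libraries, no member was called more variable than genes of like abundance. A one-sided F test of each gene's edgeR quasi-dispersion against the trend covered 12464 genes. It called 24 of them, 0.193%, excess variable at an adjusted p below 0.05. It covered 9 of the 10 members, since Mcm10 failed the filter on low counts, and called 0 of the 9. At an unadjusted p below 0.05 it also took 0 of the 9, where 5.34% of all genes tested fell below that value. DESeq2 called 108 of the same 12464 genes dispersion outliers and took 0 of the 9 as well. At shares this low, most sets of 9 genes would also give 0 calls, so these counts say little about the members. The largest quasi-dispersion among the members was that of Gmnn, 1.11 times the trend with an edgeR p of 0.406, and the smallest were those of Cdt1 at 0.10, Mcm4 at 0.102 and Mcm2 at 0.123 times the trend. A one-sided test for excess does not show that the members varied less than other genes.

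The members' deviations from their own 4-library mean were taken on the scale of log2(CPM + 1), which takes no account of length. Between the lowest and highest library they ranged over 0.055 to 0.171 for the MCM2-7 genes, 0.252 for Cdc6, 0.396 for Gmnn and 0.415 for Mcm10, whose low counts the added 1 compresses. The mean of MCM2-7 deviated by -0.03, 0.02, -0.02 and 0.03 in replicates 1 to 4. Gmnn deviated by -0.08, 0.12, -0.22 and 0.18, and the mean of the 12 proliferation markers by -0.03, 0.08, -0.13 and 0.07, so that both were higher in replicates 2 and 4 than in 1 and 3. The same 2 libraries were the higher for Mcm3, Mcm6 and Mcm7, with Mcm6 at -0.09, 0.04, -0.03 and 0.08, and not for Mcm2, Mcm4 and Mcm5. Cdt1 ranged over 0.0635, at 0.01, -0.04, 0.03 and -0.01, and was higher in replicates 1 and 3. The mean of the 82 other replication pathway genes, at 0.031, -0.002, 0.013 and -0.041, was also higher in replicates 1 and 3. Heat shock genes, the list that held every excess variable gene among the lists examined, deviated by -0.55, 0.00, -0.19 and 0.74, and were also higher in replicates 2 and 4. The part of the heat shock or proliferation transcripts in the Gmnn, Mcm3, Mcm6 and Mcm7 values was not tested. The genes whose profile lay nearest to the MCM2-7 mean were Pfdn4, a prefoldin subunit, Ppp4r3b, a regulatory subunit of protein phosphatase PP4, and Got2, the mitochondrial aspartate aminotransferase, with root mean square differences of 0.00133, 0.00295 and 0.00322 over the 4 libraries. Of 12455 genes compared, 2442 lay within 0.05, and the profile they were compared with is a mean over 6 genes, in which opposite moves cancel.

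**Figure D3:**
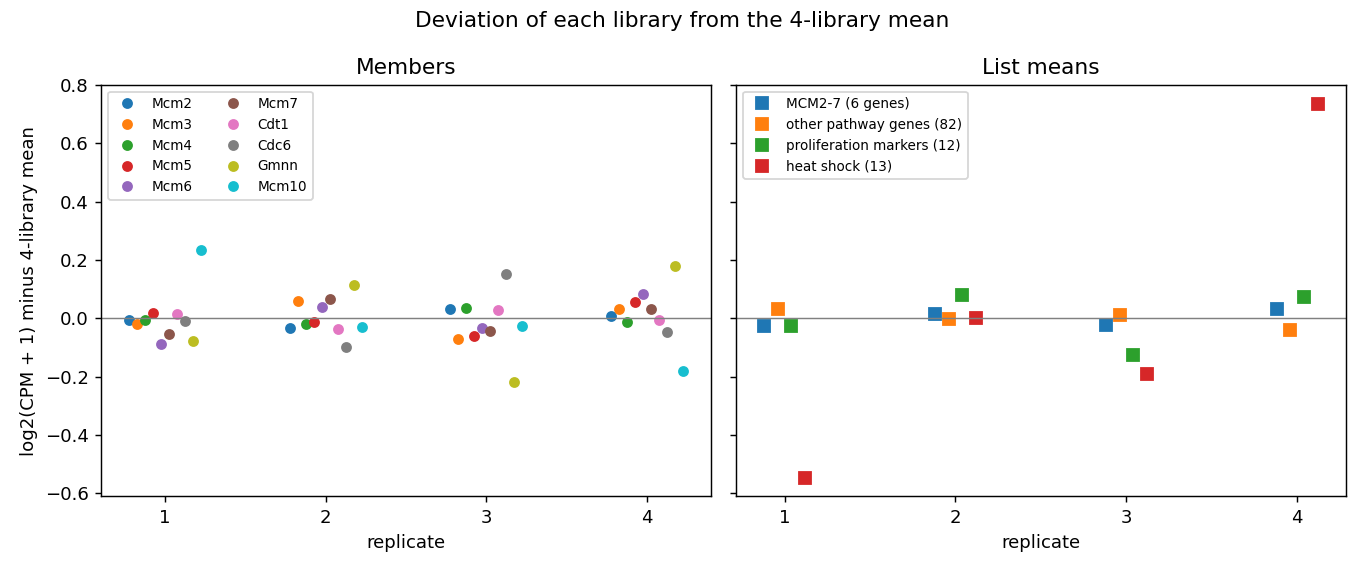
Deviation of log2(CPM + 1) from the 4-library mean, by replicate, for the 10 members (left) and for the means of 4 gene lists (right). The MCM2-7 mean stays between -0.03 and 0.03, Gmnn and Mcm10 are the most spread members, and the heat shock mean runs from -0.55 in replicate 1 to 0.74 in replicate 4.

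The wider replication pathway was described with 82 other genes in 11 lists by step. Of these, 70 were at 1 TPM or more in every library, 8 were below 1 TPM in every library and 4 were on both sides. Over all 21764 protein-coding genes, 45.6% were at 1 TPM in every library and 11357 were below it in every library. Levels are on the deposited length: with the longest transcript 10 of the 82 genes were over 1.5 times higher and 0 were over 1.5 times lower, and the 10 include Orc3 at 65.2, Cdk2 at 62.0, Topbp1 at 72.0, Samhd1 at 388, Rrm1 at 19.0 and Tk1 at 0.673 TPM. The genes low in every library were spread over 7 of the steps, and as with Cdc6 they stood beside abundant genes of the same step. Mcm10 was listed alone.

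At the origin, 5 of 6 ORC genes were abundant, with a list median of 26.3 TPM. Orc3 was at 41.5 ± 5.13 TPM, Orc2 at 38.5 ± 1.47, Orc4 at 29.8 ± 2.09, Orc5 at 22.9 ± 1.01 and Orc6 at 21.6 ± 1.59 TPM (SD, n = 4). Orc1, the ATPase subunit that is degraded in S phase, was at 0.276, 0.232, 0.202 and 0.334 TPM, between the levels of Mcm10 and Cdc6. The mean of Orc2 to Orc6 was 30.9 ± 1.05 TPM, below the MCM2-7 mean of 55.6 TPM. The MCM-binding protein gene Mcmbp was at 123 ± 8.81 TPM, above every MCM2-7 gene. Mcm9 and Mcm8, whose helicase acts in repair, were at 14.1 ± 0.748 and 2.08 ± 0.348 TPM, and Mcmdc2, a meiotic family member, was at 0.283 ± 0.148 TPM.

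Among kinases that fire origins, Cdk2 was at 40.9 ± 0.772 TPM and the DDK genes Cdc7 and Dbf4 were at 28.9 ± 1.98 and 15.9 ± 3.82 TPM. With the longest transcript Dbf4 was at 44.1 TPM and Cdc7 at 26.2 TPM, so their order turned. The cyclin partners of Cdk2 were lower than Cdk2. Ccne1 was at 8.37 ± 1.79 TPM, Ccne2 at 0.804 ± 0.236 TPM with replicate 2 alone above 1 TPM, and Ccna2, cyclin A2 of S phase, at 0.653 ± 0.134 TPM. The 10 firing factors had a list median of 6.59 TPM and 8 of them were at 1 TPM in every library. Donson was at 65.9 ± 4.90 TPM and Topbp1 at 42.1 ± 5.75 TPM, but Ticrr (treslin), which works with Topbp1, was at 0.265 ± 0.0411 TPM. Within GINS, which joins MCM2-7 in the active helicase, Gins4 was at 61.3 ± 1.37 TPM, Gins3 at 12.1 ± 0.465, Gins1 at 2.62 ± 0.254 and Gins2 at 0.962 ± 0.384 TPM. Cdc45, the third component of that helicase, was at 3.83 ± 0.717 TPM and is named here after its values were seen. Gins4 thus lay within the MCM2-7 range of 37.7 to 89.5 TPM, whereas the 3 other GINS genes and Cdc45 lay below it.

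Fork genes ranged widely in level. All 12 replicative polymerase genes, all 7 clamp and clamp loader genes and all 3 RPA genes were at 1 TPM in every library, with list medians of 34.7, 18.9 and 36.1 TPM. Pcna, the sliding clamp, was at 127, 129, 128 and 137 TPM, above every licensing gene, and Rpa1 was at 158 ± 8.83 TPM. The lowest polymerase gene was Pole, the catalytic subunit of polymerase epsilon, at 2.71 ± 0.459 TPM. In Okazaki fragment maturation 5 of 6 genes were at 1 TPM in every library, and Dna2 was at 0.831 ± 0.180 TPM. In fork protection and checkpoint genes 5 of 8 were, with Timeless at 39.2 ± 8.40 TPM beside Clspn (claspin) at 0.256 ± 0.0960 TPM. Chek1, the checkpoint kinase that claspin serves, was at 0.710 ± 0.126 TPM and is named after its values were seen.

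Nucleotide supply was uneven. Samhd1, the enzyme that degrades dNTPs in resting cells, was at 209 ± 5.52 TPM, Rrm1, the large subunit of ribonucleotide reductase, at 11.8 ± 0.582 TPM, and its S phase partner Rrm2 at 4.69 ± 0.649 TPM. Rrm2b, the small subunit used outside S phase, was at 27.1 ± 2.51 TPM, above Rrm2 in every library, and Tk1 was at 0.405 ± 0.12 TPM.

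Among 11 genes that turn licensing factors over, 10 were at 1 TPM in every library. Ddb1 and Cul4b, of the ligase that destroys Cdt1 in S phase, were at 264 ± 5.84 and 59.2 ± 1.43 TPM. Dtl, the receptor through which that ligase takes Cdt1, was at 0.149, 0.154, 0.139 and 0.141 TPM, close to Mcm10 on this length; with the longest transcript the means were 0.339 TPM for Dtl and 0.182 TPM for Mcm10. Fzr1, the APC/C activator of G0 and G1 that marks geminin and Cdc6 for destruction, was at 31.1 ± 2.97 TPM, and Fbxo5, an APC/C inhibitor, at 29.9 ± 2.21 TPM.

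**Figure D4:**
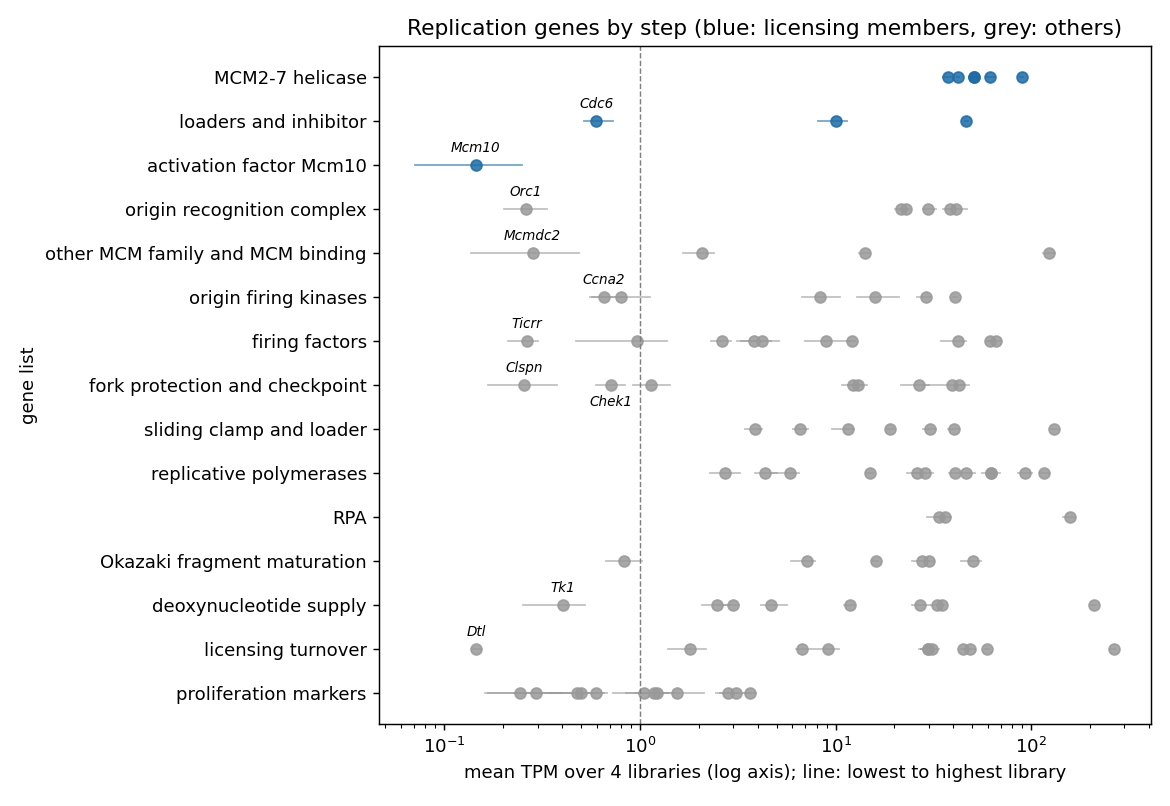
Mean TPM (log axis) of each gene over the 4 libraries, by list, with a line from its lowest to its highest library, licensing genes in blue and others in grey. Genes below 1 TPM in every library (dashed line at 1 TPM) are named outside the proliferation markers, which sit at 3.65 TPM or less, whereas the MCM2-7 genes sit at 37.7 to 89.5 TPM.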

How the data were processed

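Per the file headers, the deposited values are fragment counts per gene, made by the authors on GENCODE M13 exons (mm10) by featureCounts 1.4.6-p4, reverse-stranded, in pairs with both ends mapped. The command line holds neither the option to count multi-mapping fragments nor the one to count fragments on several genes, which this counter leaves out by default. The assay is labelled total RNA-seq, but its library protocol has poly(A)+ in the title. For the aligner, no version was given in the sources used here. Text listings of files were not used. Replicates 1 to 4 held 29041979, 35018552, 48808978 and 45490373 counts, and no pair of libraries was identical (chi-square per degree of freedom 9.60 to 30.1).

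TPM was computed from these counts and the deposited exon length. GENCODE M21 gave symbols for 50376 of 50600 gene IDs, including all 171 in the lists, and the longest transcripts. Excess spread was tested from an edgeR 4.0.16 fit (R 4.3.3): intercept-only design, TMM, filterByExpr, robust dispersion, one-sided F test, Benjamini-Hochberg over 12464 genes. The F test was computed separately from that fit, with the largest prior degrees of freedom of any gene used for every gene. The script was tested on simulated data. DESeq2 1.42.0 was an alternative, as were lengths, pseudocounts, filters and libraries left out. Other steps used Python 3.11.15. The members, lists and motifs were chosen with earlier results of these data known. Named genes were all members, the 6 highest genes and the lowest gene by mean TPM of each list (all for ORC, GINS, proliferation and Th17 markers), list genes called excess variable and the 3 nearest profiles; others are marked as named after their values were seen. Not every gene this rule takes is printed.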

Additional observations from a re-analysis of the deposited data

Results flagged for a closer look

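No licensing gene was flagged by the rule for 1 outlying library that is described next. Few sets were flagged in all, so most sets of 10 genes would also hold none, and this says little about the members. Mcm10 was not flagged either, at 0.250 TPM in replicate 1 against 0.0704 to 0.131 TPM in the others. Among 173 sets of 4 values examined (the members, the list genes and their summaries), 7 had 1 library whose gap to the nearest other exceeded Dixon's 95% critical value as a share of the range. Chance alone flags about 1 in 20 such groups. In the replication pathway these were Orc5, low at 21.4 TPM in replicate 3 against 23.3 to 23.5 TPM in the others, Ccna2, high at 0.853 TPM in replicate 1 against 0.567 to 0.603 TPM, and Rfc5, low at 9.58 TPM in replicate 4 against 12.2 to 12.4 TPM. The other 4 were markers of other cell types at very low counts: Lyz2 at 0.941 TPM and S100a8 at 0.111 TPM in replicate 4, Hbb-bs at 0.0916 TPM in replicate 3, and Klf1 at 0.461 TPM in replicate 2.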

How the results depend on the processing

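The count of members at 1 TPM stayed at 8, and the count called excess variable at 0, under every alternative run. The MCM2-7 mean of 55.6 TPM was 70.3 in CPM and 63.3 TPM when only nuclear protein-coding genes made the total, and ran from 55.1 to 56.1 TPM with 1 library left out. The highest to lowest fold of 2.38 was 2.02 with the longest transcript and 2.14 in CPM. The 24 excess variable genes became 349 without a filter, 10 at a mean CPM of 5 or more, 5 without robust fitting and 108 by DESeq2, and ranged from 7 without replicate 3 to 86 without replicate 4, with 13 without replicate 2; the cause was not tested. The log2 ratio of Mcm3 over Mcm7 (0.01) ran from -0.0025 without replicate 1 to 0.019 without replicate 3, and was -0.44 with the longest transcript and -0.23 in CPM. That of Cdt1 over Mcm2 (0.14) was -0.63 and -1.0 on the last 2 scales, where the divisor itself differs. No paired analysis was possible because the libraries form 1 group. Counts of 7 to 54 per library for Mcm10 and Cdc6 limit any comparison of those genes between libraries.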

Other observations

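Other short motifs were read in the same 250-base windows of the 8 members that had one. CCAAT, on either strand, was found in 6 of the 8 genes (7 of 9 windows), against 35.4% of all windows. It was absent from the windows of Cdt1 and Cdc6, as it was from most of all windows, and present 3 times in that of Mcm3. GGGCGG was found in 5 of the 8 genes (6 of 9 windows) against 42.6% of all windows, and TTTGAA in 1, Mcm2, against 14.5%. These are matches of letters and measure no binding.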
